A study of Chlorocebus aethiops with 12 samples.

Results

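The apoptosis regulators and death receptors described here are 39 human transcripts, listed by RefSeq accession for what their genes are known to do. They cover the BCL2 family, caspases, inhibitors of caspases, proteins that leave the mitochondria, and death ligands with their receptors and adaptors. Of the 39, 34 had a probe on the array and 32 were bright enough to test, among 32379 accessions with a probe and 23756 tested in all. The array files give accessions without gene names, so the symbols printed here come from general knowledge of RefSeq and were not checked against a table. Each accession stands beside its symbol where the gene is described.

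The cells were COS-1, a fibroblast-like line from African green monkey kidney, and each of the 4 groups held 3 biological replicates. All cells were transfected with the glucocorticoid receptor (GR), alone or together with MDFIC, so the vehicle groups carry the receptor too. From 48 h after transfection the cells received vehicle or 100 nM dexamethasone (Dex), a synthetic glucocorticoid, for 6 h. The groups are called GR vehicle, GR Dex, GR+MDFIC vehicle and GR+MDFIC Dex. The array carries probes for human transcripts while the RNA is from a monkey line, so a probe's signal also depends on how well the monkey sequence matches it. Each value is an average over the cells of a culture, in which fewer cells expressing a gene and less RNA per cell cannot be told apart.

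Apoptosis, a programmed form of cell death, has an intrinsic and an extrinsic route. In the intrinsic route the BH3-only proteins bind and oppose the anti-apoptotic BCL2 proteins or activate BAX and BAK, which open the outer mitochondrial membrane and let cytochrome c reach APAF1 and caspase-9. In the extrinsic route ligands of the tumour necrosis factor family bind death receptors, which recruit adaptors and initiator caspases. Glucocorticoids are known to kill lymphoid cells and to protect several epithelial and fibroblast types, and the BH3-only gene BCL2L11 (BIM) is a well-known glucocorticoid-responsive gene in lymphoid cells.

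Levels are log2 signals relative to the 75th percentile of each array, so a level of 1 is a signal 1 log2 unit above that point. A difference of log2 levels is a log2 change. A change was called where limma gave a Benjamini-Hochberg adjusted p under 0.05 over all 23756 accessions, and "well above background" is the scanner software's flag. Across the arrays 70.3% to 75.2% of spots were well above background and 1 spot was saturated. The 4 arrays of slide 3 were read on another scanner and stood apart from the other 8 along the first principal component, which held 46.9% of the variance. Slide 1 held the 3 GR vehicle arrays and GR Dex replicate 1. Slide 2 held GR Dex replicates 2 and 3 with GR+MDFIC vehicle replicates 1 and 2, and slide 3 held GR+MDFIC vehicle replicate 3 and all 3 GR+MDFIC Dex arrays. Slide and treatment therefore overlap strongly. For the 8 members described in full, the value with slide as a fixed block is given as the value within slides. It rests on 1 array in one arm: GR Dex replicate 1 against the 3 GR vehicle arrays of slide 1, and the 3 GR+MDFIC Dex arrays of slide 3 against GR+MDFIC vehicle replicate 3. Its adjusted p therefore assumes that the single array varies like the others, and it is given as a value and not as a further replicate. The MDFIC probe used (NM_199072) read -3.23 and -3.31 in the GR groups (vehicle and Dex) and 5.68 and 5.09 in the GR+MDFIC groups, which matched the labels, while a second MDFIC probe read -2.48 to -1.79 over all 12 arrays. With the probe used, MDFIC was lower with Dex in GR+MDFIC cells (log2 change -0.585, limma, adjusted p = 0.0103). The receptor gene NR3C1 changed by -0.54 in GR cells (limma, adjusted p = 0.184) and by -0.41 in GR+MDFIC cells (limma, adjusted p = 0.207). The glucocorticoid-responsive genes FKBP5, TSC22D3 and PER1 rose with Dex by 0.86, 1.46 and 0.80 in GR cells and by 0.999, 1.47 and 0.88 in GR+MDFIC cells, all called. Of the markers checked, vimentin and the kidney genes PAX8 and CDH16 were well above background on all 12 arrays, while the blood marker PTPRC and the endothelial marker PECAM1 were on 0 and CDH5 on 1. CD3E, also a blood marker, was above background on 12. PAX8 fell and PDGFRB and CDH16 rose with Dex in both cell types, and their part in the results was not tested.

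Of the 32 tested members, 4 rose and 1 fell with Dex in GR cells, and 27 did not pass. In GR+MDFIC cells 4 rose and 3 fell, and 25 did not pass. These are 15.6% and 21.9% of the tested members, against 7.17% of all tested accessions called in GR cells (4.4% rose and 2.77% fell) and 13.5% in GR+MDFIC cells (6.6% rose and 6.94% fell). The members were chosen with earlier results of these data known, so these shares do not test the list. The genes that rose in both were BCL2L11, BMF, RIPK1 and TNFRSF21, and TNFRSF10B fell in both; BCL2 and FASLG were called as lower in GR+MDFIC cells alone. Most members moved little: 27 of 32 in GR cells and 25 of 32 in GR+MDFIC cells had a log2 change smaller than 0.25 in size. The median change of the tested members was 0.006 in GR and 0.01 in GR+MDFIC cells, beside 0.007 and -0.007 over all tested accessions. With slide as a block 2 members were called in GR and 3 in GR+MDFIC cells, where 3.56% and 3.41% of all accessions were called. The counts over all accessions also fell on leaving out arrays, for instance to 4.6% in GR cells without GR Dex replicate 1 and to 7.64% in GR+MDFIC cells without vehicle replicate 1. Leaving out GR vehicle replicate 2 left 3 members called in GR cells (5.22% of all accessions). In the same cells 2 were left without GR Dex replicate 1 (4.6%), without GR vehicle replicate 3 (4.52%), or without the arrays of slide 3 (5.44%). In GR+MDFIC cells 3 were left without vehicle replicate 1 (7.64% of all accessions), Dex replicate 1 (10.2%) or Dex replicate 3 (8.91%). Without GR+MDFIC vehicle replicate 3 the share over all accessions rose instead, to 7.5% in GR and 26.6% in GR+MDFIC cells.

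**Figure D1:**
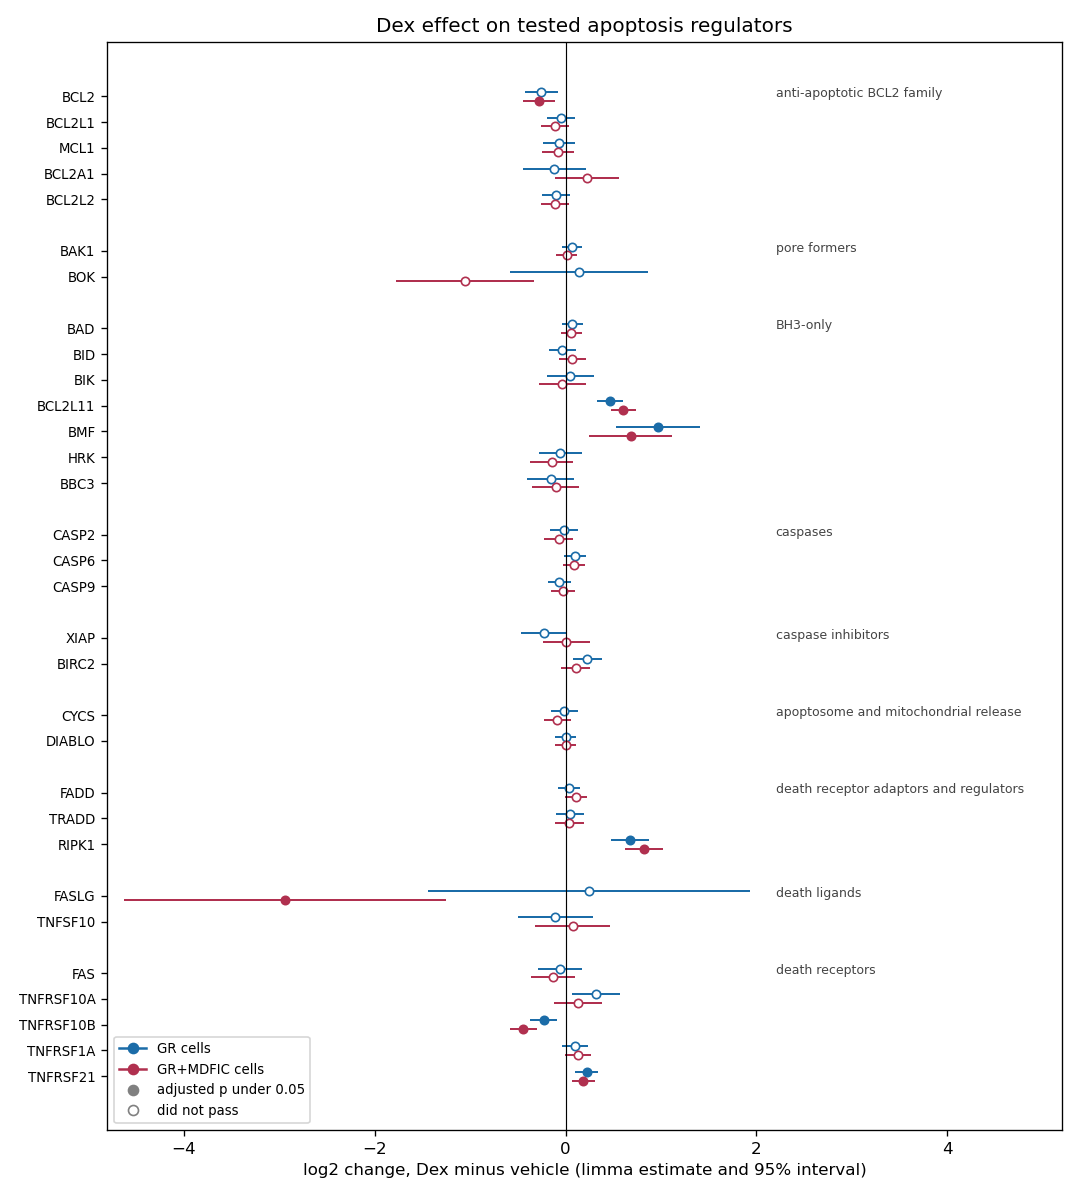
Log2 change with Dex (Dex minus vehicle, limma estimate with its 95% interval) of 31 tested members, grouped by role, in GR cells (blue) and GR+MDFIC cells (red). Filled points passed at an adjusted p under 0.05. Most intervals cross or lie close to 0, and BCL2L11, BMF and RIPK1 lie to the right of it in both cell types.

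BH3-only proteins are the triggers of the intrinsic route. Of the 8 listed, 7 were tested, 2 rose in each cell type and the other 5 did not pass. BCL2L11 (NM_138621) encodes BIM, a potent BH3-only protein that binds all the main anti-apoptotic BCL2 proteins. Its level was 1.241, 1.201 and 1.178 on the GR vehicle arrays and 1.67, 1.68 and 1.67 on the GR Dex arrays. With MDFIC added it was 1.11, 1.08 and 0.97 with vehicle and 1.57, 1.74 and 1.67 with Dex. Every Dex array was above every vehicle array in both cell types. The log2 change was 0.46 ± 0.06 (SE), a 1.38-fold rise, in GR cells (limma, adjusted p = 0.000739) and 0.61 ± 0.06, a 1.52-fold rise, in GR+MDFIC cells (limma, adjusted p = 0.000103). Within slides it was 0.46 (adjusted p = 0.017) and 0.69 (adjusted p = 0.0025). The call held on leaving out each of the 12 arrays in turn, in both cell types.

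BMF (NM_001003940) encodes a BH3-only protein that in healthy cells is held at the cytoskeleton. Its level was -4.66, -5.15 and -5.14 with GR vehicle and -3.92, -4.00 and -4.12 with GR Dex. The GR+MDFIC arrays gave -5.04, -4.32 and -4.78 with vehicle and -4.00, -3.89 and -4.21 with Dex. All 12 arrays were well above background for it, although dim, and the Dex and vehicle values did not overlap in either cell type. BMF rose by 0.97 ± 0.19 (SE; 1.96-fold) in GR cells (limma, adjusted p = 0.0141) and by 0.68 ± 0.19 (1.6-fold) in GR+MDFIC cells (limma, adjusted p = 0.0445). Within slides the changes were 1.06 (adjusted p = 0.119) and 0.75 (adjusted p = 0.281), in the same direction and not called. With normexp background correction and quantile scaling together, a setting added after the data were seen, the changes were 0.26 and 0.25, both called. Leaving out 1 array ended the GR call for GR vehicle replicates 2 and 3 and GR Dex replicates 1 and 2 (adjusted p from 0.0523 to 0.0611). In GR+MDFIC cells, leaving out any 1 of 10 of the 12 arrays ended the call (adjusted p from 0.0584 to 0.149), all but GR vehicle replicate 1 and GR+MDFIC vehicle replicate 2.

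The other tested BH3-only members, which did not pass with the probe that stood for them, were BAD, BID, BIK, HRK and BBC3 (PUMA, a p53 target). Their log2 changes ran from -0.15 to 0.07 in GR cells and from -0.15 to 0.07 in GR+MDFIC cells. BBC3 (NM_014417) changed by -0.15 (95% interval -0.39 to 0.08) in GR cells and by -0.10 (95% interval -0.34 to 0.13) in GR+MDFIC cells with the probe that stood for it, the one with the highest mean signal. The 2 other BBC3 probes gave -0.51 and -0.39 in GR cells (limma over all kept probes, adjusted p = 0.000545 and 0.015) and -0.55 and -0.25 in GR+MDFIC cells (adjusted p = 0.000255 and 0.069). For this gene the call depends on the probe, and the 2 further probes were chosen for description after their values were seen. HRK (NM_003806) also had a further probe, which gave -0.29 in both cell types and was called in GR+MDFIC cells (limma over all kept probes, adjusted p = 0.047) but not in GR cells (adjusted p = 0.0662). PMAIP1 (NOXA, NM_021127) had a probe that was well above background on 2 of 12 arrays and was not tested.

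**Figure D2:**
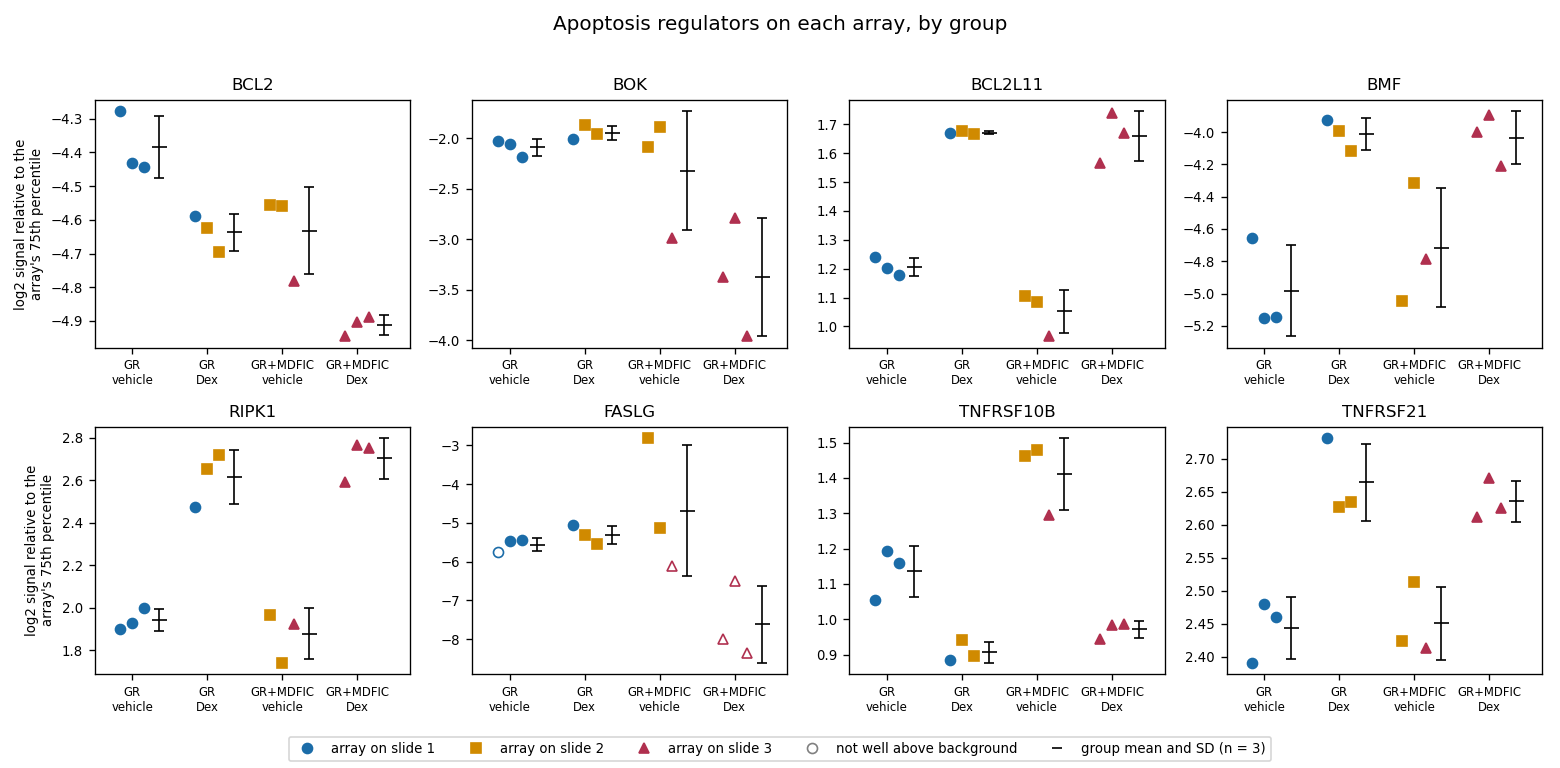
Level of 8 members on each of the 12 arrays (log2 signal relative to the array's 75th percentile; the vertical scale differs by panel), by group, with symbols for the slide and a bar for the group mean and SD (n = 3). Open symbols were not well above background. The BCL2L11 and RIPK1 Dex arrays lie above all vehicle arrays of the same cells, and the slide 3 vehicle array of BOK and FASLG lies nearest to the Dex arrays.

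Among the 5 anti-apoptotic BCL2 proteins, which bind and block the death-promoting members, none was called in GR cells and all 5 changes were negative, from -0.25 to -0.05. In GR+MDFIC cells BCL2 fell and the other 4 did not pass. BCL2 (NM_000633), the founder of the family, read -4.28, -4.43 and -4.44 with GR vehicle and -4.59, -4.62 and -4.70 with GR Dex. It read, in GR+MDFIC cells, -4.56, -4.56 and -4.78 with vehicle and -4.95, -4.90 and -4.89 with Dex. The Dex arrays were lower than the vehicle arrays in both cell types without overlap. Its log2 change was -0.28 ± 0.07 (SE; level 0.824 times that of vehicle) in GR+MDFIC cells (limma, adjusted p = 0.0302) and -0.25 ± 0.07 in GR cells (limma, adjusted p = 0.0672). The changes in the 2 cell types differed by -0.03 (95% interval -0.25 to 0.20, adjusted p = 0.938), and a difference between them was not called. Within slides the changes were -0.13 (adjusted p = 0.518) in GR+MDFIC and -0.21 (adjusted p = 0.239) in GR cells. With normexp and quantile scaling together BCL2 changed by -0.11 in GR+MDFIC cells and was not called (adjusted p = 0.0817). Leaving out GR+MDFIC vehicle replicate 1 or 2, or any GR+MDFIC Dex array, ended the call (adjusted p from 0.0692 to 0.112), and leaving out GR+MDFIC vehicle replicate 3 brought BCL2 past the threshold in GR cells (adjusted p = 0.0259). MCL1 (NM_021960), BCL2L1 (BCL-xL, NM_138578) and BCL2L2 (NM_004050) changed by -0.07, -0.05 and -0.10 in GR cells and by -0.08, -0.11 and -0.11 in GR+MDFIC cells, none passing. BCL2A1 (NM_004049) changed by -0.12 and 0.23.

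The pore formers are the proteins that open the mitochondrial membrane. BAX had no probe for its accession, BAK1 (NM_001188) changed by 0.07 and 0.01, and neither BAK1 nor BOK passed the test. BOK (NM_032515), a BAX-like family member, had the largest change of the members well above background on all 12 arrays. It read -2.03, -2.06 and -2.19 with GR vehicle and -2.01, -1.87 and -1.96 with GR Dex. In GR+MDFIC cells it read -2.09 and -1.89 on the vehicle arrays of slide 2, -2.99 on that of slide 3, and -3.37, -2.79 and -3.96 on the Dex arrays, all of slide 3. One Dex array lay above the slide 3 vehicle array, so the groups overlapped. The SDs were 0.09 and 0.07 in the GR groups (vehicle and Dex) and 0.59 in both GR+MDFIC groups. The SE of each BOK change pools all 4 groups. The log2 change was -1.05 ± 0.32 (SE) in GR+MDFIC cells (limma, adjusted p = 0.0562) and 0.14 ± 0.32 in GR cells (limma, adjusted p = 0.891), and within slides it was -0.38 (adjusted p = 0.749) and 0.08. With normexp and quantile scaling together BOK changed by -0.60 and was called in GR+MDFIC cells (adjusted p = 0.0281). Leaving out GR+MDFIC vehicle replicate 3 gave -1.38 and a call (adjusted p = 0.00632), and the difference between the 2 cell types was then called too (adjusted p = 0.0384). That array is the one vehicle array of GR+MDFIC cells on slide 3. The effect of the slide on this gene cannot be told apart from that of Dex in the remaining arrays.

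Caspases are the proteases that carry out cell death. CASP4 (NM_001225) and CASP8 (NM_001228) had no probe for the listed accession. CASP2 (NM_032982), CASP6 (NM_001226) and CASP9 (NM_001229) did not pass in either cell type. Their log2 changes ran from -0.06 to 0.10 in GR cells and from -0.07 to 0.09 in GR+MDFIC cells. CASP6 was higher on every Dex array than on every vehicle array in both cell types, by 0.10 and 0.09, and missed the threshold (adjusted p = 0.273 and 0.211, limma).

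XIAP and BIRC2 are inhibitor-of-apoptosis proteins, XIAP a direct inhibitor of caspases and BIRC2 a ubiquitin ligase of the RIPK1 pathway. Neither passed. BIRC2 (NM_001166) changed by 0.23 ± 0.06 (SE) in GR cells (limma, adjusted p = 0.0572) and by 0.10 ± 0.06 in GR+MDFIC cells (limma, adjusted p = 0.268). Its Dex arrays were above its vehicle arrays without overlap in both cell types. XIAP (NM_001167) changed by -0.23 and 0.01. Cytochrome c (CYCS, NM_018947), the trigger of the apoptosome, changed by -0.01 and -0.09, and DIABLO (NM_019887), which neutralises XIAP, by 0 and 0.001 with 95% intervals of -0.10 to 0.10 in both. APAF1 had no probe.

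RIPK1 (NM_003804) encodes a kinase that joins tumour necrosis factor receptor signalling to survival or to cell death. Its level was 1.90, 1.93 and 2.00 with GR vehicle and 2.47, 2.65 and 2.72 with GR Dex. The levels in GR+MDFIC cells were 1.97, 1.74 and 1.92 with vehicle and 2.59, 2.76 and 2.75 with Dex. No Dex array overlapped a vehicle array in either cell type. RIPK1 rose by 0.67 ± 0.08 (SE; 1.59-fold) in GR cells (limma, adjusted p = 0.00104) and by 0.82 ± 0.08 (1.77-fold) in GR+MDFIC cells (limma, adjusted p = 0.000212). Within slides the rise was 0.53 (adjusted p = 0.041) and 0.78 (adjusted p = 0.00791), and the call held on leaving out each of the 12 arrays in turn. The adaptors FADD (NM_003824) and TRADD (NM_003789), which link receptors to caspases and to RIPK1, changed by 0.04 and 0.05 in GR cells and by 0.11 and 0.04 in GR+MDFIC cells, none passing. CFLAR (NM_003879), the FLIP inhibitor of caspase-8, was well above background on 0 of 12 arrays and was not tested.

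FASLG (NM_000639), the ligand of FAS, is the one tested member that was not well above background on all arrays: it was on 7 of 12. The probe used was well above background on all 3 arrays in GR Dex only, so it passed the filter through a group outside the GR+MDFIC comparison. Its level was -5.76, -5.47 and -5.45 with GR vehicle and -5.07, -5.32 and -5.55 with GR Dex. In GR+MDFIC cells it was -2.81 and -5.14 on the vehicle arrays of slide 2, -6.10 on that of slide 3, which was not above background, and -8.00, -6.49 and -8.36 on the Dex arrays, of which none was. The fitted log2 change in GR+MDFIC cells was -2.93 ± 0.75 (SE; limma, adjusted p = 0.0306). With the Dex arrays set no lower than the lowest signal well above background on each array, the vehicle mean was 2.84-fold higher, which is no strict bound because 1 vehicle array was itself below background. Within slides the change was -1.51 (adjusted p = 0.528), and in GR cells it was 0.25 (adjusted p = 0.928). With normexp and quantile scaling together it was -0.54 in GR+MDFIC cells and was not called (adjusted p = 0.0643). A second FASLG probe gave -0.39 in GR and -0.58 in GR+MDFIC cells, neither passing. Leaving out GR+MDFIC vehicle replicate 1 gave -2.00 (adjusted p = 0.0503), and leaving out vehicle replicate 2, Dex replicate 1 or Dex replicate 3 ended the call too (adjusted p up to 0.0991). TNFSF10 (TRAIL, NM_003810), the ligand of TNFRSF10A and TNFRSF10B, changed by -0.11 and 0.07, not passing.

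TNFRSF10B (NM_003842), the death receptor DR5, fell with Dex in both cell types with the probe that stood for it. It read 1.05, 1.19 and 1.16 with GR vehicle and 0.88, 0.94 and 0.90 with GR Dex. With both factors it read 1.46, 1.48 and 1.29 with vehicle and 0.94, 0.98 and 0.99 with Dex. The Dex arrays were below the vehicle arrays without overlap in both. The log2 change was -0.23 ± 0.06 (SE; level 0.853 times that of vehicle) in GR cells (limma, adjusted p = 0.0454) and -0.44 ± 0.06 (0.737 times) in GR+MDFIC cells (limma, adjusted p = 0.00115), and within slides -0.25 (adjusted p = 0.107) and -0.32 (adjusted p = 0.049). The call in GR cells was lost on leaving out 1 array for 9 of the 12, all but GR vehicle replicate 1 and GR+MDFIC vehicle replicates 2 and 3 (adjusted p from 0.0582 to 0.145), and that in GR+MDFIC cells held for all 12. The second TNFRSF10B probe gave 0.13 in GR and 0.09 in GR+MDFIC cells, of the opposite sign, and neither passed. With the mean of its probes TNFRSF10B changed by -0.05 in GR cells (limma, adjusted p = 0.699). It was then called in neither cell type.

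TNFRSF21 (DR6, NM_014452), a death receptor best known from neurons and lymphocytes, rose in both. It read 2.39, 2.48 and 2.46 with GR vehicle and 2.73, 2.63 and 2.63 with GR Dex. On the GR+MDFIC arrays it read 2.42, 2.51 and 2.41 with vehicle and 2.61, 2.67 and 2.62 with Dex, again without overlap. The log2 change was 0.22 ± 0.05 (SE; 1.17-fold) in GR cells (limma, adjusted p = 0.0236) and 0.18 ± 0.05 (1.14-fold) in GR+MDFIC cells (limma, adjusted p = 0.0334), and within slides 0.29 (adjusted p = 0.0591) and 0.22 (adjusted p = 0.139). The GR call ended on removing GR Dex replicate 1 or one of the vehicle replicates 1 and 3 of those cells (adjusted p from 0.0655 to 0.0897), and the GR+MDFIC call was lost on leaving out 6 of the 12 arrays (GR vehicle replicate 3, GR+MDFIC vehicle replicates 1 and 3 and all 3 GR+MDFIC Dex arrays). The other TNFRSF21 probe gave 0.27 and -0.005, neither passing. With the mean of its probes TNFRSF21 was called in GR cells (limma, adjusted p = 0.0104) but not in GR+MDFIC cells. TNFRSF10A (DR4, NM_003844) changed by 0.32 and 0.14, TNFRSF1A (NM_001065), the main tumour necrosis factor receptor, by 0.10 and 0.13, and FAS (NM_000043) by -0.06 and -0.13, none passing.

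**Figure D3:**
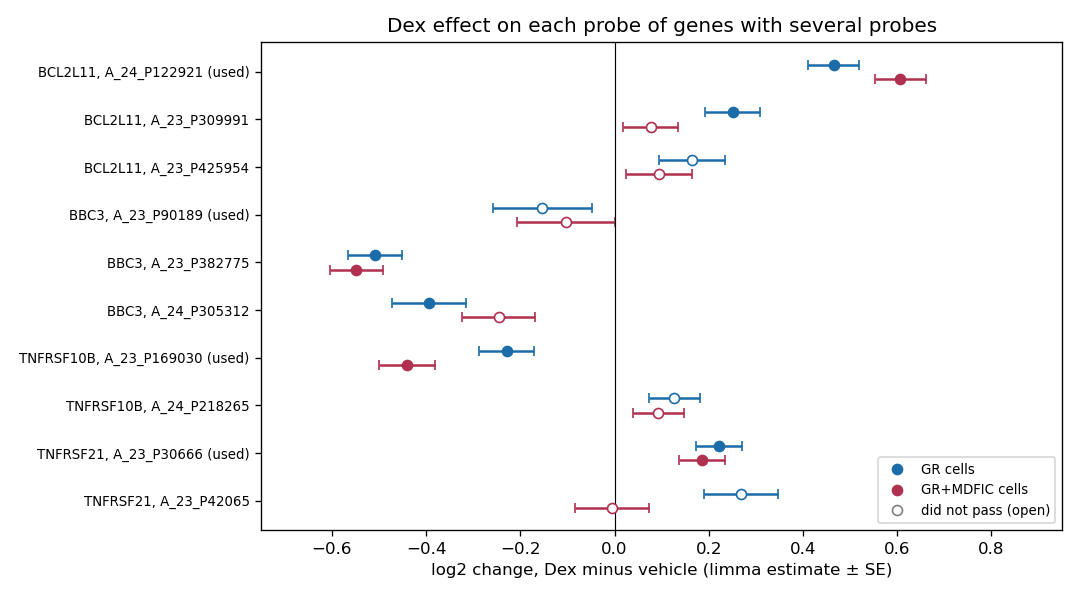
Log2 change with Dex (limma estimate ± SE) for each kept probe of BCL2L11, BBC3, TNFRSF10B and TNFRSF21, genes chosen after their values were seen, in GR cells (blue) and GR+MDFIC cells (red). Filled points passed at an adjusted p under 0.05. The TNFRSF10B probes lie on opposite sides of 0, and the 2 further BBC3 probes lie further below 0 than the one used.

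Of the tested members, 13 had several kept probes, and their probes differed in the sign of the change for 5 members in GR cells and for 4 in GR+MDFIC cells. BCL2L11 had 2 further kept probes, which gave 0.25 (limma over all kept probes, adjusted p = 0.0319) and 0.16 in GR cells and 0.08 and 0.10 in GR+MDFIC cells. The direction of its change was shared by all 3 probes, while the size was 0.46 and 0.61 only with the probe used. The RIPK1, BMF, BCL2 and BOK results each rest on 1 probe.

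**Figure D4:**
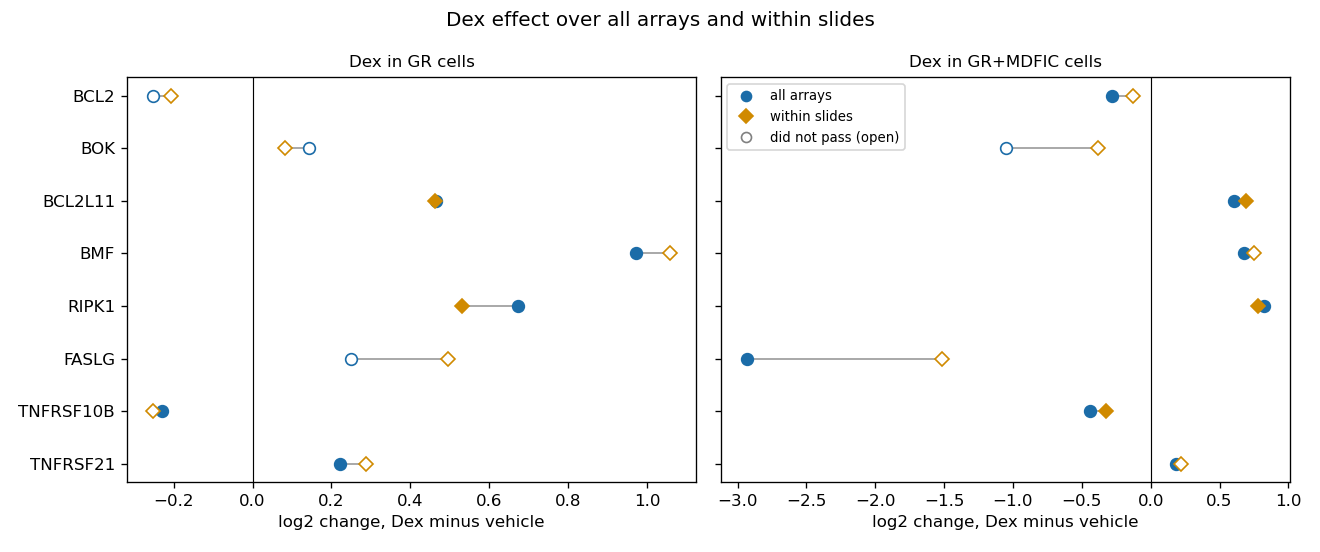
Log2 change with Dex (Dex minus vehicle) of the 8 members described in full, over all arrays (circles) and within slides (diamonds), in GR cells and GR+MDFIC cells. Filled symbols passed at an adjusted p under 0.05. Each diamond rests on 1 array in one arm (GR Dex replicate 1, or GR+MDFIC vehicle replicate 3). The diamonds of BCL2L11 and RIPK1 lie on the same side of 0 as the circles, and those of FASLG and BOK in GR+MDFIC cells moved towards 0 within slides.

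No member passed the test of whether the Dex change differed between GR+MDFIC and GR cells (limma, 0 of 32 called; 0.0589% of all tested accessions were called, 0.00421% with a higher and 0.0547% with a lower change), and 3 had an unadjusted p under 0.05. These were BOK (-1.19, unadjusted p = 0.0245), FASLG (unadjusted p = 0.0138) and TNFRSF10B (-0.21, 0.0289, 95% interval -0.40 to -0.03). FASLG was well above background on 0 of 3 GR+MDFIC Dex arrays, so the size of its difference was not measured, and its second probe gave -0.19. For BCL2L11 the difference was 0.14 (95% interval -0.03 to 0.32), for RIPK1 0.15 (-0.11 to 0.42), for BMF -0.29 (-0.90 to 0.32) and for TNFRSF21 -0.04 (-0.19 to 0.12). Leaving out GR+MDFIC vehicle replicate 3 brought 3 members past the threshold, BCL2A1, BOK and FASLG, and 1797 of all accessions. The changes in the 2 cell types had the same sign for 24 of the 32 tested members, and the share over all tested accessions was not computed. The 2 comparisons use different arrays but share slide 2 and 1 estimate of the spread. Vehicle and Dex arrays did not overlap for 13 members in GR cells (10 higher and 3 lower with Dex, 40.6%) and 12 in GR+MDFIC cells (8 higher and 4 lower, 37.5%). Over all tested accessions the groups did not overlap for 26.2% and 32.2%.

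A further list of 30 genes around the same pathway, chosen by role with earlier results of these data known, had 24 that were tested. In GR cells 1 rose and 3 fell, and in GR+MDFIC cells 1 rose and 3 fell. That is 16.7% of the 24 tested in each, beside 7.17% and 13.5% of all tested accessions, and these shares do not test the list. No value within slides is given for this list. The median change was 0.02 in GR and -0.05 in GR+MDFIC cells. TNFAIP3 (A20, NM_006290), a ubiquitin-editing inhibitor of NF-kB and of tumour necrosis factor signalling, fell by 0.84 in GR cells (limma, adjusted p = 1.79e-05) and by 0.81 in GR+MDFIC cells (limma, adjusted p = 1.52e-05). MDM2 (NM_002392), the ubiquitin ligase that holds p53 low, fell by 0.92 (limma, adjusted p = 1.47e-05) and by 0.89 (limma, adjusted p = 1.34e-05). CASP10 (NM_032977), an initiator caspase of the extrinsic route, was called as higher in both (limma, adjusted p = 0.00151 in GR and 0.0332 in GR+MDFIC cells). It was well above background on 1 of 3 GR vehicle and 2 of 3 GR+MDFIC vehicle arrays and on all Dex arrays, so it passed the filter through the groups where it is high, and its fitted changes of 1.22 and 0.62 rest partly on vehicle signals near background. CASP1 (NM_033292), the inflammatory caspase, fell by 0.30 in GR cells (limma, adjusted p = 0.049) and changed by -0.22 in GR+MDFIC cells, not passing (limma, adjusted p = 0.0964). TRAF1 (NM_005658), an adaptor of tumour necrosis factor receptors, changed by -0.05 in GR cells (limma, adjusted p = 0.958) and fell by 0.95 in GR+MDFIC cells (limma, adjusted p = 0.0229). Its GR+MDFIC vehicle arrays read -2.01 and -1.92 on slide 2 and -2.80 on slide 3. The GR+MDFIC Dex arrays, all of slide 3, read -3.125, -2.918 and -3.549. TNFAIP3, MDM2 and CASP10 had 2 kept probes each, and only the values of the probe used are given for them.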

How the data were processed

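Total RNA of 12 COS-1 samples (500 ng each) was labelled with Cy3 and hybridised to one-colour Agilent arrays of 45015 spots, of which 1639 were controls. The deposited values are intensities: per the file headers, Agilent Feature Extraction (12 in the submitters' processing notes; 12.0.0.7 and, for slide 3, 12.0.3.1 in the headers) subtracted background to give a processed signal, with no normalization between arrays. The deposited series table holds the same intensities. The deposited flags, other values of 0 or 1, mark spots well above background, saturated or outlying, per the file headers.

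From these, log2 processed signal minus each array's 75th percentile over non-control spots was computed here from the deposited intensities, outlier-flagged spots were set to missing, and repeated spots were averaged. A probe was kept if some group had it well above background on each of its 3 arrays and every group had 2 or more values (30177 kept), and the brightest kept probe, by its mean, represented an accession. A group-means model was fitted to 12 arrays in limma 3.58.1 (R 4.3.3, data.table version 1.17.8), two-sided, with 8 residual degrees of freedom. The fit was also run on simulated data with independent noise on each array and no slide effect. That run cannot test the calls made here, where slide and treatment overlap, and its result is not reported here. Figures used matplotlib 3.10.9 and Python 3.11.15. Slide as a fixed block left 6 degrees of freedom and gives the values within slides 1 and 3. The number of arrays limits the precision. The p-values rest on 1 estimate of the spread per accession, taken by limma over the 4 groups of 3 labelled replicates.

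Named in full were members called in either Dex comparison or in their difference, and the 2 largest rises and 2 largest falls among members well above background on all 12 arrays. The written rule printed symbols only where a table pairs them with accessions; no such table was used here, and symbols from general knowledge of RefSeq were printed in departure from it. The members and lists were chosen with earlier results of these data known. Alternatives covered scaling, background correction, filters, probe averaging, slide, replicate number and leaving out each array. Some items of the lists are counted but not reported here. No sequences are printed.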

Additional observations from a re-analysis of the deposited data

How the results depend on the processing

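The call held for BCL2L11 and RIPK1 in both cell types under each alternative run except background correction with normexp and 75th percentile scaling. With that setting the members called numbered 0 in either cell type and 0 for the difference (30, 76 and 0 of all accessions). It moved the median change of all tested accessions to -0.09 in GR and 0.44 in GR+MDFIC cells. An offset of 50 was added before scaling. The mean 75th percentile of the processed signal, which normexp did not use, was 386 on slide 3 against 850 and 868 on slides 1 and 2. Whether the offset had a part in the shift was not tested. With this normexp setting BCL2 read 1.06, FASLG 0.77 and TNFRSF21 -0.078 in GR+MDFIC cells, reversed in sign, or 0.62, 0.33 and -0.52 relative to that median. BCL2L11 and RIPK1 read 0.32 and 0.51 there, or -0.12 and 0.07 relative to that median, so the direction of BCL2L11 relative to it turned. Normexp with quantile scaling, added after that result was seen, called 6 and 6 members, beside 6.17% and 15.1% of all accessions. BIRC2 was gained in GR cells, while BOK was gained and BCL2 and FASLG were lost in cells with MDFIC.

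For Dex in GR cells 5 members and 7.17% of all accessions were called. Median scaling called 3 members (5.66% of all accessions), no filter 3 (3.88%) and the 2 groups alone 3 (4.57%). Leaving out slide 3 (chosen after seeing the data) called 2 (5.44%). Slide as a fixed block, which rests on 1 array in one arm, is given above for both cell types. For Dex in GR+MDFIC cells 7 members and 13.5% of all accessions were called. No filter called 4 members (7.66% of all accessions), the 2 groups alone 3 (5.23%) and slide as a random block 4 (10.6%). The mean of an accession's probes called 5 members in GR cells (6.87% of all accessions) and 6 in GR+MDFIC cells (13.1%). BBC3 was then gained and TNFRSF10B lost in both cell types, and TNFRSF21 was lost in GR+MDFIC cells. Leaving out each array gave 2 to 6, 3 to 7 and, for the difference, 0 to 3 calls. Over all accessions 4.52% to 7.5% were then called in GR cells and 7.64% to 26.6% in GR+MDFIC cells. With the replicate number as a block, 4, 7 and 0 members were called. In GR and GR+MDFIC cells 6.78% and 14.1% of all accessions were then called. TNFRSF10B was lost in GR cells (limma, adjusted p = 0.0563), BMF was lost (0.0565) and BOK gained (0.0272) in cells with MDFIC. Correlations of same-numbered arrays ran from -0.24 to 0.14, and 7 of 12 arrays correlated best with an array of their own number. These values cannot show whether the numbers pair the arrays, because slide also separates arrays within groups. Signal over background limits FASLG, PMAIP1, CFLAR and CASP10.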
